A study of Homo sapiens with 2 samples.

Results

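The genes of fibroblast growth factor (FGF) signalling were examined in H9 cells, an established line of human embryonic stem cells. The members were 38 autosomal genes chosen by name: 20 ligands, 5 receptors, 9 feedback genes and 4 adaptors or co-receptors, out of 15110 protein-coding genes with a known start. In the assay, ATAC-Me, a transposase fragments accessible DNA and unmethylated cytosines of the fragments are converted, which reads accessibility and CpG methylation from the same molecules. There was 1 group of undifferentiated cells with 2 replicates and no treated group. All of the cells carried the H9 genotype, were grown on Matrigel in mTeSR, a defined medium that supplies FGF2, and were brought into single-cell suspension with Accutase before their chromatin was isolated. The labels do not say whether the replicates came from separate cultures, and their spread may therefore reflect handling alone. H9 is a single line.

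FGF ligands bind receptor tyrosine kinases on the cell surface together with heparan sulphate or a klotho protein. The adaptor FRS2 then links the receptor to the RAS and ERK kinase cascade, and ERK induces sprouty (SPRY), SPRED and dual-specificity phosphatase (DUSP) genes, whose products damp the same cascade. Human embryonic stem cells depend on FGF signalling for self-renewal, and FGF2 is added to their medium. CpG-rich gene starts are usually unmethylated whether or not the gene is used, whereas CpG-poor starts are often methylated in cells that do not use the gene.

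Methylation at a start is the percentage of CpG reads that were methylated within 500 bp of the outermost RefSeq start. The assay held 28475863 and 51406146 reads over autosomal CpGs in replicates 1 and 2 and covered 31.6% and 59.0% of the CpGs listed. A minimum of 20 CpG reads per replicate was set for a start, which 32 of the 38 members met. The other 6, FGF1, FGF6, FGF7, FGF17, FGF21 and KLB, had few reads. In all, 15.8% of members and 24.1% of genes fell under the minimum. This filter favours open and CpG-rich starts, so values over the 32 are not values over the whole family. Of 5 measured pluripotency markers, 4, SOX2 and NANOG among them, were under 20% at the start, against 91.4% of measured genes. DNMT3B was over 20% in both replicates, and the start of LCK, a lymphocyte kinase, was over 80%. The neural genes PAX6, SOX1, NEUROD1 and NEUROG2 and the fibroblast gene VIM were also under 20%. The neural gene TUBB3 was over 20% in both replicates. Low starts were thus shared by markers of different cell types, and use of these genes was not measured. A low value is therefore not read as use, and these markers cannot check the label.

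The 250 bases before the start are shown for 5 members that stand for the patterns described below, with CpGs in capitals (RefSeq, GRCh38.p14, 5′ to 3′). FGF5 had an unmethylated start without a peak, FGF7 a CpG-poor and methylated start, FGF23 a peak beside methylated CpGs, and FGFR2 and DUSP6 unmethylated starts under a peak.
FGF5 (chr4:80266338-80266587, plus strand): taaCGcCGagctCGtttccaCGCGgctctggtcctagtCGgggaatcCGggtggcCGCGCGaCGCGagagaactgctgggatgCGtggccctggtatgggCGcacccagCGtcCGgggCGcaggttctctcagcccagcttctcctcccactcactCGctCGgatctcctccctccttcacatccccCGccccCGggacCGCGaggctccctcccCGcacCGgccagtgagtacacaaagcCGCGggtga
FGF7 (chr15:49422992-49423241, plus strand): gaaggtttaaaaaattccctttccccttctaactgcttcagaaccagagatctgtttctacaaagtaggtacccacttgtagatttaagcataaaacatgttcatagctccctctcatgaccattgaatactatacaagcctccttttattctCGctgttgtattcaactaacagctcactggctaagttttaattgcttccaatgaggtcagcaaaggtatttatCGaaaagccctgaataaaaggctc
FGF23 (chr12:4379713-4379962, minus strand): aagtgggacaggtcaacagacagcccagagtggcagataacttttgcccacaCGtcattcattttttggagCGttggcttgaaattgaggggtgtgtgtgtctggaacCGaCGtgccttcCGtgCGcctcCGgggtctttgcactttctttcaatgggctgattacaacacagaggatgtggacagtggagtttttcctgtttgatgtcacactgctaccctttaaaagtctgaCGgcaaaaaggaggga
FGFR2 (chr10:121598445-121598694, minus strand): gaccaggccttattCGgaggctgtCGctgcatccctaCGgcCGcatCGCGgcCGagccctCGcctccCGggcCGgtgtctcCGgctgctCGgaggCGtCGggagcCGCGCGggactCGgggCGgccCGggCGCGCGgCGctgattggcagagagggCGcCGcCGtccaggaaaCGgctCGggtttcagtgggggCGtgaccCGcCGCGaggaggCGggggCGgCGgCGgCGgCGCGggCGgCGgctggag
DUSP6 (chr12:89352502-89352751, minus strand): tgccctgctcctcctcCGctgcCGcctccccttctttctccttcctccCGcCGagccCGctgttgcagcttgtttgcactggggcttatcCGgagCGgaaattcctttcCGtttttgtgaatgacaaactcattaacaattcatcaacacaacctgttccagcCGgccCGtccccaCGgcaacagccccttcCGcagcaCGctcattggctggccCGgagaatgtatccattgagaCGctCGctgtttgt

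These sequences differ in how many CpGs they offer. The FGFR2 sequence held 42 CpGs, that of FGF5 27, that of DUSP6 16, that of FGF23 8 and that of FGF7 2. Across the 29 members with a listed sequence the median was 19 CpGs, against 17 over 15101 genes. The Sp1 box, GGGCGG on either strand, was found in 19 of the 29 and in 56.1% of all promoters. CCGGAA, the core bound by ETS factors, which ERK activates, was found in FRS2 and SPRY2 only, and in 19.4% of all promoters. TATAAA was found in FGF6 only, and in 9.42% of all promoters. FGF4, FGF8, FGF9, FGF17, FGF19, FGF20, FGFR1, DUSP4 and DUSP5 had no listed sequence, and their start was taken as the end of the gene at which transcription is known to begin.

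Most measured members were unmethylated at the start. Under 20% in both replicates were 30 of the 32, or 93.8%, against 91.4% of the 11461 measured genes, and no measured member was over 80% in both, against 2.56% of genes. These shares are near those of all genes. Median start methylation over the measured members was 0.737% and 1.67% in replicates 1 and 2, against 0.673% and 1.65% for all genes. Feedback genes were lowest, with medians of 0.2% and 0.772% over 9 genes. The 15 measured ligands had medians of 1.06% and 2.02%, the 5 receptors 1.13% and 2.71%, and the 3 measured adaptors and co-receptors 0.747% and 2.11%. Ligands exceeded feedback genes by 1.05 ± 0.268 points and receptors exceeded them by 1.43 ± 0.710 points (SD, n = 2), both larger than the spread between replicates. Ligands and receptors differed by −0.380 ± 0.442 points (SD, n = 2), within the spread. That spread is between replicates and not between genes, and the classes overlapped. FGF5 and FGFR2 had means of 0.472% and 0.743%, below the 1.53% of the feedback gene DUSP4. With 2 replicates the smallest two-sided p of an exact permutation test is 0.5, and the class differences were left untested. The ligand value rests on the members that passed the minimum: with at least 1 read in each replicate the ligand median was 2.70% over all 20.

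**Figure D1:**
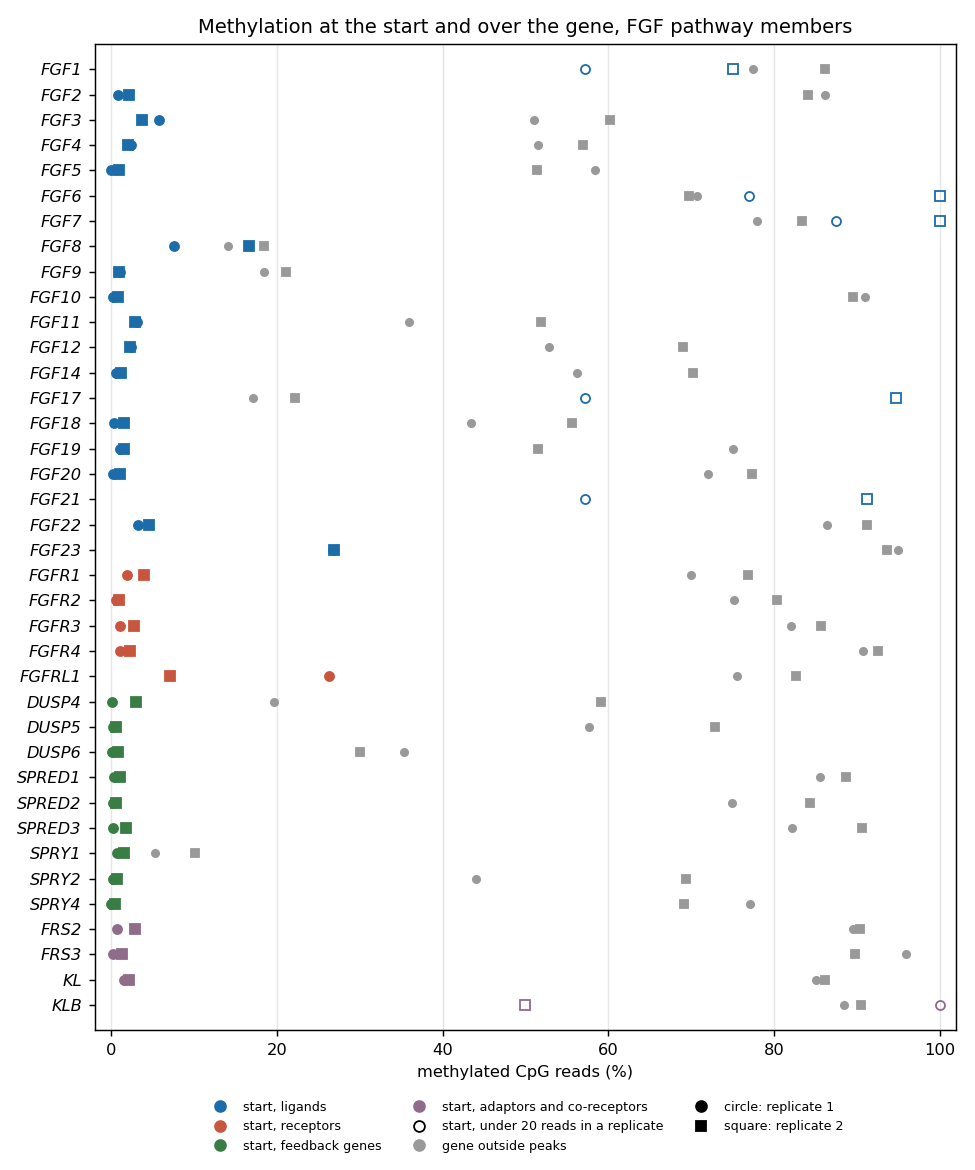
Percentage of methylated CpG reads at the start (colours) and over the gene outside peaks (grey) for each member, with a circle for replicate 1 and a square for replicate 2. Filled starts lie near 0 apart from FGF8, FGF23 and FGFRL1, while the open symbols, starts with under 20 reads in a replicate, lie at 50% or above.

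Several ligands for secreted, canonical signalling were unmethylated at the start. FGF2, the ligand supplied in the medium, read 0.845% and 2.11% at its start in replicates 1 and 2, on 710 and 1183 reads, under a peak. FGF4, which pluripotent cells of the mouse secrete, read 2.44% and 2.02%. FGF5, known in the mouse as a marker of the primed epiblast, read 0% and 0.943%. The 0% rests on 202 reads, which allows up to 1.49%. No peak lay within 10 kb of FGF4 or FGF5. Coverage of the FGF4 start averaged 1.51 times and that of FGF5 2.40 times the mean reads per CpG of the library. Both were below the median start, at 5.27 times over all genes and 4.10 times over ligands. FGF9, a ligand of the developing gonad and lung, read 1.06% and 0.927% under a peak, and its close relative FGF20 read 0.180% and 1.10%. FGF10, a signal of limb and lung buds, read 0.169% and 0.836%, and FGF18, of bone and lung growth, read 0.307% and 1.55%. Both had a peak in the start window, beside the start itself.

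FGF8, a ligand of gastrulation and of brain and limb patterning, was partly methylated. It read 7.63% and 16.7% at the start, a mean of 12.2% ± 6.39 (SD, n = 2), on 131 and 414 reads. The methylated reads lay upstream: the kilobase before the start read 47.0% and 51.4%, and the kilobase after it 2.78% and 8.15%. Within 250 bp of the start the mean was 25.1%. A peak with its summit 833 bp before the start, which read 4.76% and 2.94%, and another 1157 bp after it did not reach the window.

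FGF3 and FGF22, ligands of the inner ear and of synapses, read slightly above most members. FGF3 was at 5.81% and 3.76% and FGF22 at 3.26% and 4.57%. FGF3, FGF4 and FGF19 are neighbours on chromosome 11, with 66999 bp between FGF19 and FGF4 and 34626 bp between FGF4 and FGF3. Of these, FGF19 alone had a peak in its start window. All 3 starts were under 6% in both replicates.

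The ligands that stay inside the cell and bind sodium channels, FGF11, FGF12 and FGF14, were unmethylated under a peak. Their means were 3.03% ± 0.163, 2.37% ± 0.108 and 0.884% ± 0.375 (SD, n = 2). Starts far inside the long genes differed. The inner start of FGF12, 317944 bp downstream, read 0% and 1.53% on 735 and 652 reads and lay under a peak. That of FGF14, 485498 bp downstream, read 0% and 1.64% on 337 and 366 reads, with no peak. Another inner start of FGF14, 84739 bp downstream, read 100% and 66.7% on 7 and 3 reads, also with no peak.

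Methylated starts were found among the CpG-poor ligands. FGF7, a growth factor of epithelia made by mesenchyme, read 87.5% and 100% on 8 and 15 reads, with 95% Wilson intervals of 52.9% to 97.8% and 79.6% to 100%. FGF6, a ligand of muscle, read 76.9% and 100% on 13 and 39 reads. FGF1 read 57.1% and 75.0% on 7 and 12 reads. FGF17, of the FGF8 subfamily, read 57.1% and 94.7% on 7 and 19 reads. The intervals of replicate 1 were wide, from 25.1% to 84.2% for both FGF1 and FGF17. Counting starts with at least 1 read in each replicate, 6 of 20 ligands were over 20% in both, or 30%, against 21.8% of genes. Their windows held 4 to 34 CpGs, against a median of 49.5 for all ligands. The count alone did not separate the starts: that of FGF14 held 21 CpGs and read 0.619% and 1.15%.

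The endocrine ligands, which circulate and need a klotho co-receptor, were unlike each other. FGF19, the signal that restrains bile acid synthesis, read 1.06% and 1.54%. FGF21, a hormone of fasting, read 57.1% and 91.2% on 14 and 57 reads, and its start held 12 CpGs. FGF23, the phosphate hormone, read 26.8% in both replicates on 97 and 231 reads, the only measured ligand over 20%. That value joins low and high CpGs. The peak just downstream of the FGF23 start, in its window, read 15.7% and 19.1%, whereas the 250 bases printed above read 100% and 92.9% on 9 and 14 reads. With each CpG weighted equally, the FGF23 start was at 63.7%.

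Receptor genes were unmethylated at the start with 1 exception. FGFR1, the main FGF receptor of human embryonic stem cells, read 1.92% and 3.91%, FGFR2 0.543% and 0.942%, FGFR3 1.13% and 2.71%, and FGFR4 1.09% and 2.33%. A peak lay over the start of these 4. Starts within a gene were not alike. In FGFR2, the start 1799 bp downstream read 0.351% and 1.29% under a peak, while those 4186, 4477 and 67130 bp downstream read between 82.1% and 93.3% without a peak. In FGFR4, the inner start 2635 bp downstream read 80.0% and 100% on 5 and 14 reads.

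FGFRL1, a receptor that lacks the kinase domain, gave the widest gap between replicates among the measured members. Its listed start read 26.3% and 7.16% on 213 and 377 reads, a mean of 16.7% ± 13.5 (SD, n = 2; Fisher's exact test, two-sided, adjusted p = 1.44e-07). The listed start sits at an edge: the kilobase before it read 3.56% and 1.88%, the kilobase after it 54.9% and 46.6%. The end of the annotated gene, 2252 bp upstream, read 1.14% and 4.54%, with a peak in its 500-bp window. Fisher's exact test called 9 of the 32 measured members different between replicates at an adjusted p of 0.05, or 28.1%, against 29.5% of genes. Reads of a fragment that spans several CpGs are counted at each, so such p-values are too small. The largest differences after FGFRL1 were in FGF8, 9.03 points, and DUSP4, 2.90 points.

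Feedback genes were unmethylated at all 9 starts, and 8 of the 9 had a peak in the start window, which in SPRED1 and SPRED3 ended just upstream of the start. DUSP6, the cytoplasmic ERK phosphatase, read 0.071% and 0.772% on 1400 and 1295 reads, with 20.75 and 10.63 times the mean reads per CpG of its library. The nuclear phosphatases DUSP5 and DUSP4 read 0.2% and 0.635%, and 0.081% and 2.98%. SPRY2 read 0.230% and 0.708%, and SPRY1 0.727% and 1.57%; both restrain RAS and ERK activation. SPRY4 read 0% and 0.457% on 100 and 219 reads, and 0 of 100 allows up to 3%. SPRED1, SPRED2 and SPRED3, which inhibit RAS at the membrane, were at means of 0.724%, 0.440% and 0.976%. The start of SPRY4 had no peak in the window, but a peak with its summit 1875 bp upstream covered the end of the annotated gene.

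Of the adaptors, FRS2 read 0.747% and 2.93% and FRS3 0.202% and 1.37%, both under a peak. The peak of FRS3 also lies within 1000 bp of the start of PRICKLE4. The co-receptors parted: KL, which FGF23 needs, read 1.60% and 2.11% on 188 and 427 reads without a peak in the window, while KLB, which FGF19 and FGF21 need, had 6 and 4 reads, of which 100% and 50% were methylated.

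Peaks at starts were about as frequent as over all genes. A peak overlapped the start window of 25 of 38 members, or 65.8%, against 61.9% of genes. By class these were 11 of 20 ligands, 4 of 5 receptors, 8 of 9 feedback genes and 2 of 4 adaptors and co-receptors. Among starts under 20% in both replicates, 24 of 30 members had a peak, or 80.0%, against 86.9% of genes. The 6 starts under 20% without a peak in the window were FGF3, FGF4, FGF5, FGF8, KL and SPRY4. A peak lay within 10 kb of 35 members, or 92.1%, against 83.9% of genes. FGF4, FGF5 and FGF7 had none.

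Unmethylated DNA extended further around many member starts than around most genes. Walking outward from the start in 500-bp bins with both replicates summed, the stretch under 20% was at least 3000 bp long in 16 of 38 members, or 42.1%, against 9.11% of genes. The length of 3000 bp was chosen after the values were seen. Among starts under 20% in both replicates it was 15 of 30 members, against 12.3% of genes. Feedback genes made up 7 of the 16, ligands 6 and receptors 3, so 7 of 9 feedback genes had a long stretch. Median stretches were 4000 bp for feedback genes, 3000 bp for receptors, 1750 bp for ligands and 1500 bp for both the adaptors with co-receptors and all genes. FGF9 had the longest among members, 8500 bp, followed by FGF11 with 7000 bp, DUSP4 with 6000 bp and DUSP6 with 5500 bp. The walk did not stop at the start of another gene. In FGF11 it ran 3500 bp upstream, over a peak with its summit 2974 bp upstream and within 1000 bp of the start of TMEM102. In replicate 1 alone the stretch of FGF11 was 4000 bp, and in replicate 2 alone 7000 bp. For DUSP4 the replicates gave 6500 and 5500 bp.

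**Figure D2:**
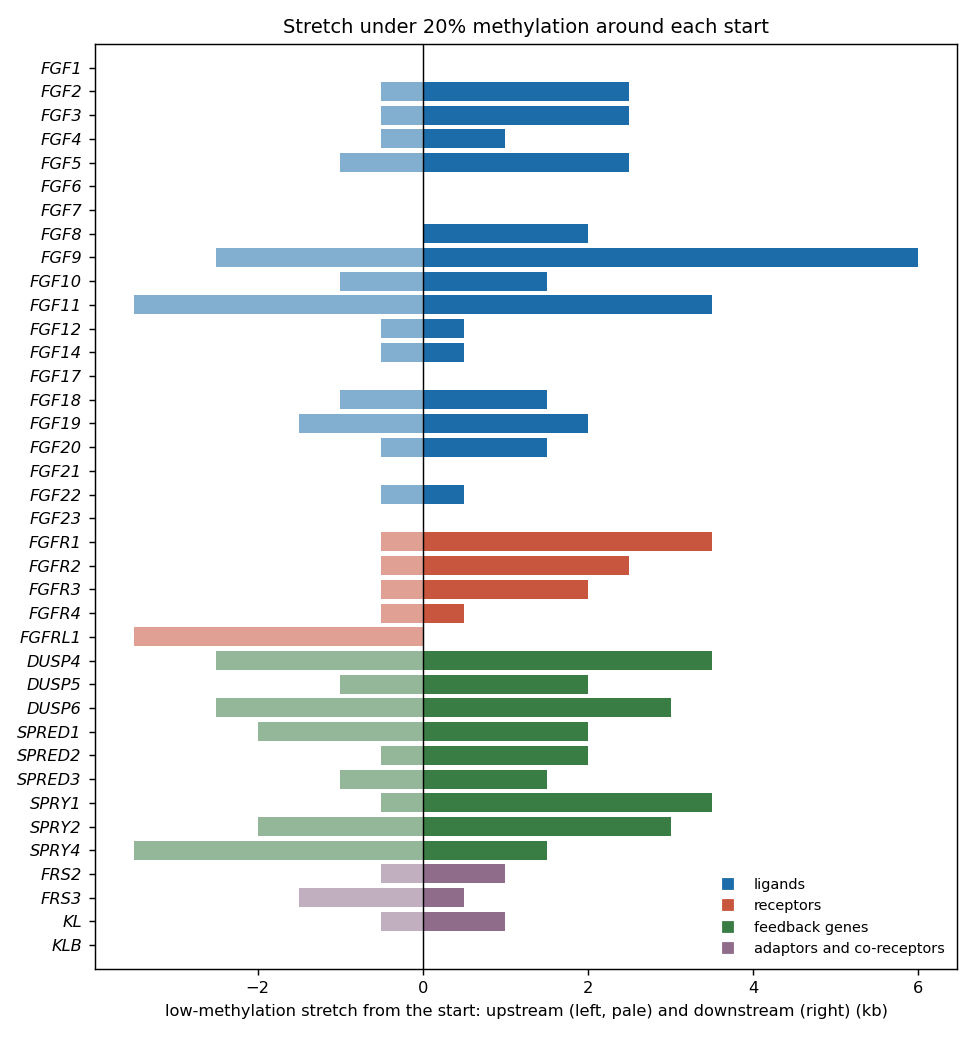
Length of the stretch under 20% methylation around each member's start, in kb, upstream in pale and downstream in full colour, both replicates summed. DUSP4, DUSP6, SPRED1, SPRY2, SPRY4, FGF9, FGF11 and FGFRL1 extend at least 2 kb upstream. The stretches of FGFR1, FGFR2 and FGFR3 lie mostly downstream, and that of FGFRL1 lies wholly upstream.

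The medians of the classes around the start were not alike, and single genes departed from them. SPRY1 and SPRED2 had 500 bp of their stretch upstream, and FGFR4 had 500 bp on either side. The stretch of FGFRL1 was 3500 bp upstream and 0 bp downstream, and FGF11 and FGF9 had 3500 and 2500 bp upstream. From 1500 to 2000 bp upstream, the median feedback gene read 2.02% and 2.12% in replicates 1 and 2, over 8 genes each. At the same distance the median ligand read 50% and 83.3% over 7 and 13 genes that reached 5 reads, and the median receptor 46.2% and 72.4% over 5. From 1500 to 2000 bp downstream, feedback genes read 0.452% and 1.87% and receptors 0.645% and 3.23%. Ligands there read 16.0% and 22.5% over 14 and 17 genes. These are medians of few genes with a changing membership, and they are given as a description.

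**Figure D3:**
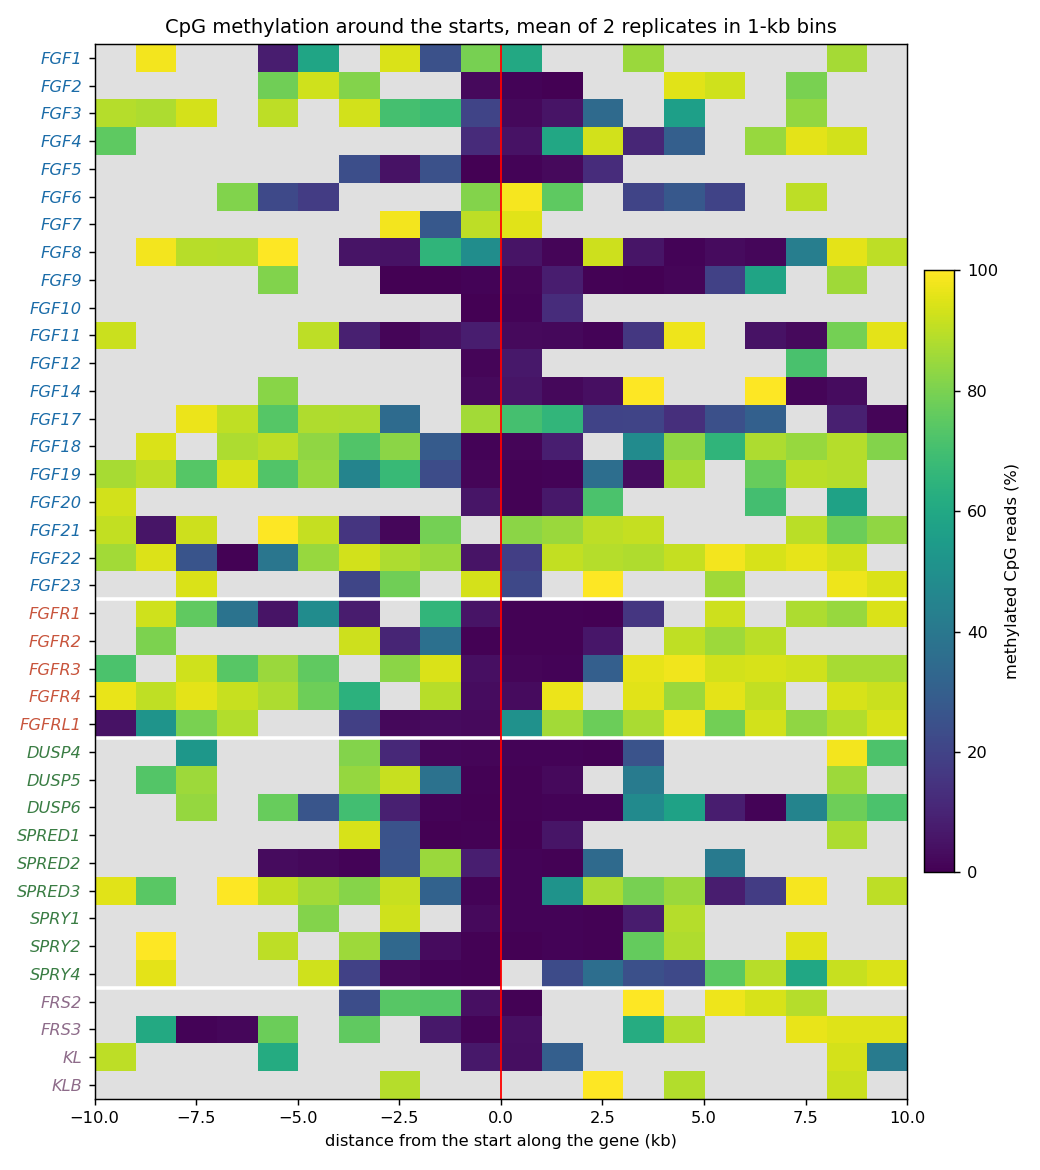
Percentage of methylated CpG reads in 1-kb bins from 10 kb upstream to 10 kb downstream of each start, mean of 2 replicates, with genes in rows by class, dark for low methylation and grey where a replicate had under 5 reads. Dark bins run through FGF9 and the feedback genes, and dark patches apart from the start are seen in FGF8, FGF17, FGF21, SPRED2 and DUSP6.

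Several low patches stood apart from the start. In FGF8, the gene from 3000 to 7000 bp downstream read between 0% and 7.02% in every bin of both replicates, beyond a bin at 100% and 85%. In FGF4, the bin 3000 to 4000 bp downstream, at the 3′ part of the gene, read 17.6% and 4% on 17 and 25 reads, between bins at 86.7% and 100% before it and at 40% and 20.8% after it. An enhancer bound by SOX2 and OCT4 is known in the last exon of this gene in the mouse. No peak was listed there. Upstream of SPRED2, the 3 bins from 6000 to 3000 bp before the start read between 0.55% and 4.23% and held 3 peaks, and the bin from 2000 to 1000 bp before the start read 75.0% and 95%. Downstream of DUSP6, beyond the end of the gene, a peak 6610 bp from the start read 0.452% and 1.13% on 221 and 177 reads.

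Outside peaks and more than 2000 bp from the start, member genes were less methylated than genes at large. The median was 75.0% and 76.8% over 37 members in replicates 1 and 2, against 82.5% and 86.5% over 12133 genes. Ligands were at 58.4% and 69.0% and feedback genes at 57.7% and 69.4%, whereas receptors were at 75.6% and 82.7% and adaptors and co-receptors at 89.0% and 90.1%. Receptors exceeded feedback genes by 15.6 ± 3.25 points, and ligands fell below receptors by a difference of −15.4 ± 2.48 points (SD, n = 2), both beyond the spread between replicates. Ligands and feedback genes differed by 0.204 ± 0.771 points (SD, n = 2), within it. That spread does not measure how genes of a class vary. Feedback genes had means from 7.69% in SPRY1 to 87.1% in SPRED1, and receptors from 73.4% in FGFR1 to 91.7% in FGFR4. Under 50% in both replicates were 5 of 37 members, or 13.5%, against 5.69% of genes: SPRY1, FGF8, FGF17, FGF9 and DUSP6.

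Of these 5 genes, 4 are shorter than the median gene. SPRY1, 6966 bp long, read 5.29% and 10.1% on 227 and 297 reads. FGF8, 10261 bp long, read 14.1% and 18.5%, and DUSP6, 5267 bp long, read 35.3% and 30% on only 34 and 50 reads. FGF9 is 33426 bp long and read 18.5% and 21.1%. Unlike most members, FGF17 read higher at its start than over its gene. The start read 57.1% and 94.7% on only 7 and 19 reads, under the minimum. The gene read 17.1% and 22.2% on 199 and 401 reads. The median member was 15083.5 bp long, against 25877.5 bp for all genes, so more of a member's length lies near its start. Leaving out 2000 bp around the start also did not remove every low stretch that began there. The stretches of SPRY1, FGF9 and DUSP6 ran 3500, 6000 and 3000 bp downstream, so their gene values include part of them. Farther inside SPRY1, the bin 4000 to 5000 bp downstream read 77.8% and 100%, on only 9 and 5 reads. The part of gene length and of these stretches in the lower gene values was not tested. At the other end, FGF23, FRS3, FGFR4, FGF10 and FRS2 were at 89% or above in both replicates. FGF21 had 7 reads there in replicate 1 and was not counted as measured.

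The step between start and gene was widest in adaptors and receptors. The median difference, start minus gene, was −88.1 ± 0.930 points for adaptors and co-receptors, −77.1 ± 3.36 for receptors, −63.1 ± 7.91 for feedback genes and −56.0 ± 0.621 for ligands (SD, n = 2), against −83.0 ± 2.33 for all genes. The median starts differed by under 2 points between classes. The steps did not all follow the gene medians, which for ligands and feedback genes were only 0.204 points apart. The ligand step covers the 15 ligands measured at the start, and the ligand gene median covers 19.

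The authors' list held 110 peaks within 10 kb of member genes: 59 near ligands, 16 near receptors, 24 near feedback genes and 11 near adaptors and co-receptors. Of the 101 with 10 or more CpG reads per replicate, 87 were under 20% in both, against 70.2% of all peaks, and 11 were over 20% in both, or 10.9%, against 21.2%. The whole list is not limited to peaks near genes, and its median was 2.45 CpGs per 100 bp. No share was taken over peaks within 10 kb of genes at large, so the difference cannot be assigned to the member genes. All 24 peaks near feedback genes were under 20% in both replicates. The 11 partly methylated peaks, 8 near ligands and 3 near receptors, all lay away from the start windows. They had a median signal of 265 and 1.74 CpGs per 100 bp, against 777 and 6.45 in the 87. The median signal over the whole list was 541, in the caller's own unit.

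**Figure D4:**
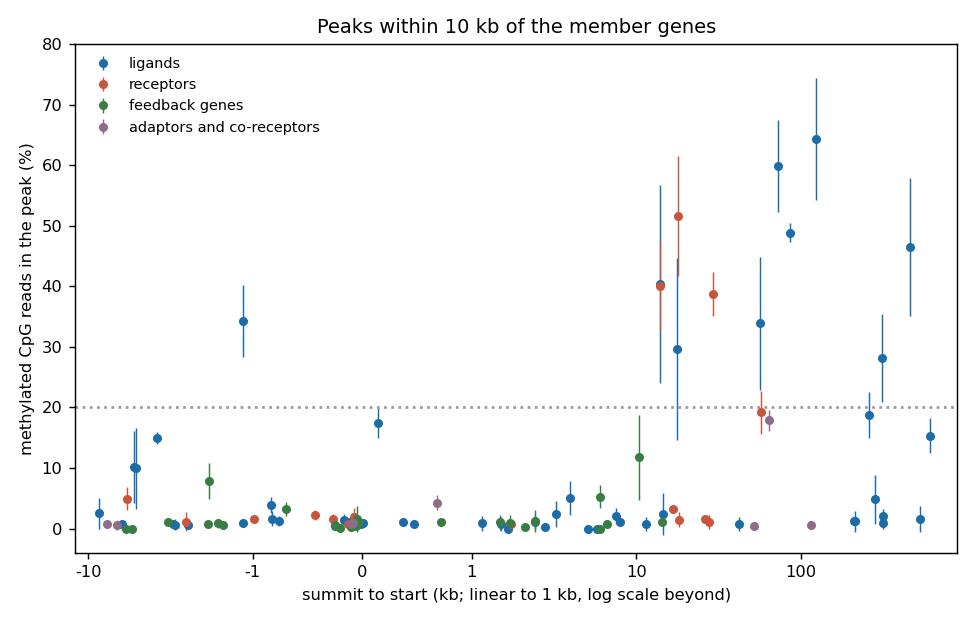
Methylation of each peak within 10 kb of a member gene, as mean and SD of 2 replicates, against the distance of its summit from the start in kb, with negative values upstream. All feedback peaks lie under 20%, and 7 of the 8 ligand peaks above 20% in both replicates lie more than 10 kb downstream.

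The strongest peaks of each class were unmethylated. Near feedback genes they had signals of 4320.0 just upstream of SPRED3, near the start of GGN, 3619 upstream of DUSP6 and 3554 upstream of SPRY4, and read between 0.362% and 4.06%. The strongest receptor peaks were over the start of FGFR4 with a signal of 3245, in FGFR1 with 2298 and in FGFR2 with 1595. The FGFR1 peak, 27851 bp inside the gene, read 0.2% and 1.86% on 501 and 539 reads. Among ligands they lay in FGF14, 7932 bp downstream of the start (signal 2567, 1.03% and 1.20%), beside FGF11 near the start of its neighbour CHRNB1 (2369) and 2480 bp upstream of FGF21 (2105). Of the 110 peaks, 12 lay within 1000 bp of the start of another gene, among them the strongest near FRS2, by CCT2, and the only peak near KLB, by RPL9 and LIAS.

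Partly methylated peaks were spread over 7 members. Those in FGF14, at 124938 and 460163 bp from the start, read 71.4% and 57.1%, and 54.5% and 38.5%, on at most 21 reads. Another in FGF14, at 311043 bp, read 33.3% and 23.1% on 27 and 13 reads, with a signal of 1078.5. The peak in FGF1 86800 bp downstream read 50% and 47.7% on 44 reads in each replicate. Just beyond the end of FGF2, a peak read 54.4% and 65.3% on 90 and 72 reads. In bulk chromatin, a partial value cannot separate cells or alleles that are fully methylated from sites that are methylated in part, and reads of closed chromatin within a peak were not taken off; their part in these values was not tested.

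Other genes of the pathway, from the list of 30 RAS and ERK components, ERK targets and heparan sulphate enzymes, had a known start in 22 cases. Of the 20 measured, 19 were under 20% in both replicates, against 91.4% of genes, and 18 of the 22 had a peak in the start window, against 61.9%. The lowest were FLRT2, a membrane protein that binds FGF receptors, at 0.536% ± 0.758 and FOS, an ERK target, at 0.540% ± 0.763 (SD, n = 2). The highest were IL17RD, an inhibitor of FGF signalling, at 9.73% ± 0.821 and FLRT3 at 25.1% ± 3.04 (SD, n = 2). A stretch of at least 3000 bp was found in 7 of the 22, against 16 of 38 members and 9.11% of genes. None of these genes was under 50% in both replicates outside peaks.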

How the data were processed

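Per the labels, libraries of 2 H9 samples in 1 group were made from chromatin. The authors deposited, for each sample, a table without a header of autosomal and other CpGs with a methylation fraction from 0 to 1 and a count of covering reads. A single list of peaks, also deposited by the authors, gives each peak a signal and a −log10 q-value. The submitters' processing notes name the build hg38, Trim Galore and Genrich. Mapper and methylation caller: not given in the sources used here.

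Fraction times reads gave methylated reads, whole within 0.001. A window's value is its methylated over all reads, per replicate, then mean ± SD. File positions matched all 553 CpGs of the members' RefSeq sequences (GRCh38.p14). Starts came from RefSeq, or for 9 members from the end of the gene at the known side. Gene values used CpGs outside peaks and over 2000 bp from the start. Stretches were walked in 500-bp bins, passing over bins under 5 reads. Replicates were compared per start with Fisher's exact test (scipy 1.17.1), Benjamini-Hochberg adjusted at 0.05 over 11461 genes. A trial on simulated data drew reads independently, unlike reads that share a fragment, so it cannot show the error rate on these data. Reads without molecular identifiers make intervals and upper limits cover counting error only. All members were named; peaks by a rule of place, methylation or the 3 highest signals of a class. The members and lists were chosen with earlier results of these data known. Alternatives covered windows, read minimums, weighting, peak limits, start choice and each replicate left out. Figures were drawn with matplotlib 3.10.9.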

Additional observations from a re-analysis of the deposited data

How the results depend on the processing

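At the start, the excess of ligands and of receptors over feedback genes kept its direction in every alternative run: 1.24 and 0.864 points for ligands without replicate 1 and without replicate 2, 0.742 in the 250-bp window, 3.85 in the 1000-bp window, 1.79 at a minimum of 10 reads, 1.77 with CpGs weighted equally and 2.21 at a minimum of 1 read, and for receptors 2.52 within 1000 bp. The ligand median was 4.49% in the 1000-bp window, 2.28% at a minimum of 10 reads, 2.31% with equal weights and 2.70% at a minimum of 1 read, and within 1000 bp the receptor median was 3.16% and that of adaptors and co-receptors 2.50%. Ligands minus receptors, within the spread above, was 1.33 points in the 1000-bp window, 0.357 at a minimum of 10 reads and 0.779 at a minimum of 1 read. In the 1000-bp window 1 member was over 80%, as was 1 at a minimum of 1 read. Start medians ranged from 0.2% to 0.772% for feedback genes and from 1.06% to 2.02% for ligands when a replicate was left out. The cause of these shifts was not tested.

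Gene values depend on leaving out peaks and the 2000 bp around the start. With all CpGs of the gene the medians were 30.8% for ligands, 35.2% for receptors, 12.0% for feedback genes and 44.7% for adaptors and co-receptors, ligands minus feedback genes was 18.9 points, receptors minus feedback genes 23.2 and ligands minus receptors −4.34. The start minus gene differences were then −18.5, −32.9, −10.8 and −36.0 points for ligands, receptors, feedback genes, and adaptors and co-receptors. With CpGs weighted equally, ligands were at 72.7% and feedback genes at 73.1%, receptors minus feedback genes was 10.04 points, ligands minus receptors −10.4, and start minus gene −60.3, −81.9, −72.5 and −86.2 points in the same order of classes.

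Peaks above the median significance numbered 24, 10, 15 and 7 in that order, and within 5 kb 7 peaks were left near adaptors and co-receptors. Starts that differed between replicates numbered 3385, and 1892 when the odds ratio also had to pass 2 after removing the shift between libraries. Long stretches were found in 12 members with a limit of 10%, against 6.62% of genes, in 20 with 30%, against 11.3%, in 15 without replicate 2, against 11.9%, and in 17 without replicate 1, against 9.09%. Ligands with one were 3 at the limit of 10%. Of 224 alternative values for single starts, 33 moved by more than the spread between replicates. The limits of 10% and 30%, the first listed start, the read minimum of 1 and leaving out CpGs marked as altered were chosen after seeing the data. No paired analysis was possible because there is 1 group. Precision is limited by the number of reads, with 4 to 57 reads at the starts of the 6 members under the minimum. Of these, FGF7 and FGF21 had only 4 and 12 CpGs in the window, at 1.99 and 1.86 times the mean reads per CpG.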
